A study of Mus musculus with 12 samples.

Results

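The data described here are RNA-sequencing profiles of MLL-AF9 stable cells, mouse leukaemia cells that already carried the fusion oncogene MLL-AF9 before they received PRDM16 or a mutant form of it, PRDM16mut. They are 4 of the 12 libraries of the series, 2 with PRDM16 and 2 with PRDM16mut. Of 23235 entries in the authors' table for these cells, 10580 reached 1 FPKM in 2 or more libraries. FPKM is the number of sequenced fragments per length of transcript, scaled to the size of the library, so levels may be compared between genes. Of these entries, 135 were small RNAs and were left out, because their replicates differed by a median of 0.68 on the log2 scale against 0.05 for the other entries. The remaining 10445 entries were tested. Spred3, with a second-highest FPKM of 1.0008, lay just inside this filter, and Zscan20, at 0.999473, just outside it.

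Per the labels, both groups were C57BL/6 bone marrow cells that had been transduced with MLL-AF9, were then transduced with PRDM16 or PRDM16mut, and were harvested when 10 days of puromycin selection had passed. The medium was IMDM supplemented with 15% serum (FBS) and with the cytokines IL3, IL6 and SCF, each at 10 ng/ml. The series' design text calls them leukaemia cells. The labels name no mutation for PRDM16mut and do not say whether the MLL-AF9 line came from 1 clone, or whether the 2 libraries of a group were separate cultures. The tests therefore rest on the spread between libraries, and that spread may be technical. No group without either form was analysed, so higher or lower with PRDM16 always means relative to PRDM16mut. The other 8 libraries came from lineage-negative bone marrow cells of the same strain, in the same medium, that received PRDM16 or PRDM16mut together with MLL-AF9 or with another leukaemia fusion, E2A-HLF, and were selected with G418 and puromycin for 10 days. They are used here only for the comparison of effects that closes the report.

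PRDM16 is a large nuclear protein with a PR domain, which is related to the SET domain of histone methyltransferases, and with DNA-binding zinc fingers. It is known for its part in maintaining blood stem cells and in the identity of brown fat cells. MLL-AF9 joins the start of the histone methyltransferase MLL to AF9, a partner of the transcription elongation machinery, and keeps genes such as Hoxa9 and Meis1 active in myeloid cells. The series title places PRDM16 in tumor suppression, and the design asks which transcripts differ between cells with intact and mutant PRDM16 once MLL-AF9 is established.

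The cells had the transcripts of neutrophil precursors. Elane, the neutrophil elastase of azurophil granules, stood at 3005 and 2888 FPKM with PRDM16 against 3028 and 3101 with PRDM16mut, and the related proteases Prtn3 and Ctsg stood at 1871 and 1874 and 1534 and 1528 FPKM with PRDM16. Itgam, the integrin of myeloid cells, was at 67.3 to 69.9 FPKM over the 4 libraries, and Kit, the receptor for SCF, at 5.45 to 6.21. Monocyte and macrophage transcripts were present as well: 19 of 22 such genes passed the filter, and the list summed to 1673 to 1856 FPKM. Some defining genes of other lineages were at or near 0. The T cell gene Cd3g and the connective tissue gene Col1a2 were listed at 0 in every library, and the B cell gene Cd79a reached at most 0.217 FPKM. The filter was passed by 2 of 18 erythroid genes, 1 of 13 B cell genes, 2 of 16 T and NK cell genes and 4 of 14 stromal genes. The summed FPKM of the tested and untested members of these lists ran from 89.2 to 101 over the 4 libraries for erythroid genes, from 5.28 to 6.40 for B cell genes and from 5.25 to 5.85 for T and NK cell genes. The stromal sum was 290 to 291 with PRDM16 and 245 to 248 with PRDM16mut, and almost all of it was the matrix protein Thbs1. In bulk cells, fewer cells of a type and less RNA per cell cannot be told apart.

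The libraries resembled each other closely. Their summed FPKM was 570872 to 597691 and the correlation between replicates was 0.998 for PRDM16 and 0.999 for PRDM16mut. The total depth is unknown, since the table holds no read counts. From the steps in low values (75.7% and 75.8% of replicate ratios were, within 0.5%, those of whole numbers no larger than 6), replicate 2 was at 1.18 times the depth of replicate 1 with PRDM16 and at 1.01 times with PRDM16mut. Prdm16 itself was abundant in all 4 libraries, at 77.9 and 79.95 FPKM with PRDM16 against 89.1 and 94.6 with PRDM16mut. Transcripts of the introduced gene and the cell's own gene, and of the intact and mutant form, cannot be told apart in these values, so they show that Prdm16 was present but not which form a library holds. The groups did not overlap, and the level with PRDM16 was lower, with a log2 fold change of -0.22 ± 0.037 (SE) and an adjusted p of 0.00870. That call was lost without PRDM16 replicate 1 (adjusted p = 0.0701) and with the spread pooled over the 12 libraries (adjusted p = 0.418).

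Intact PRDM16 was associated with many small differences in transcript level. In a linear model of log2(FPKM + 1) fitted to all 10445 genes, 1385 genes, or 13.3%, passed an adjusted p of 0.05, which is what called means below. With PRDM16, 885 genes (8.47%) were higher and 500 (4.79%) were lower. Among called genes the median size of the log2 fold change was 0.20, against 0.07 over all genes tested, whose median signed change was 0.01. A fold change on this scale understates how far genes of low FPKM moved. On this scale 19 called genes differed by 1.5-fold or more and 4 by 2-fold or more. The counts depended on the value added to FPKM and were 67 and 7 with 0.1 in place of 1. The 4 of the main fit were Ppic, Clec2g, Xlr and LOC100302567, all lower with PRDM16. The last lies outside the rule for naming genes and was chosen after its values were seen, at 41.1 and 23.4 FPKM with PRDM16 against 49.7 and 86.0 with PRDM16mut. For 60.8% of all genes the 2 groups had no overlap, so a lack of overlap alone says little here.

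**Figure D1:**
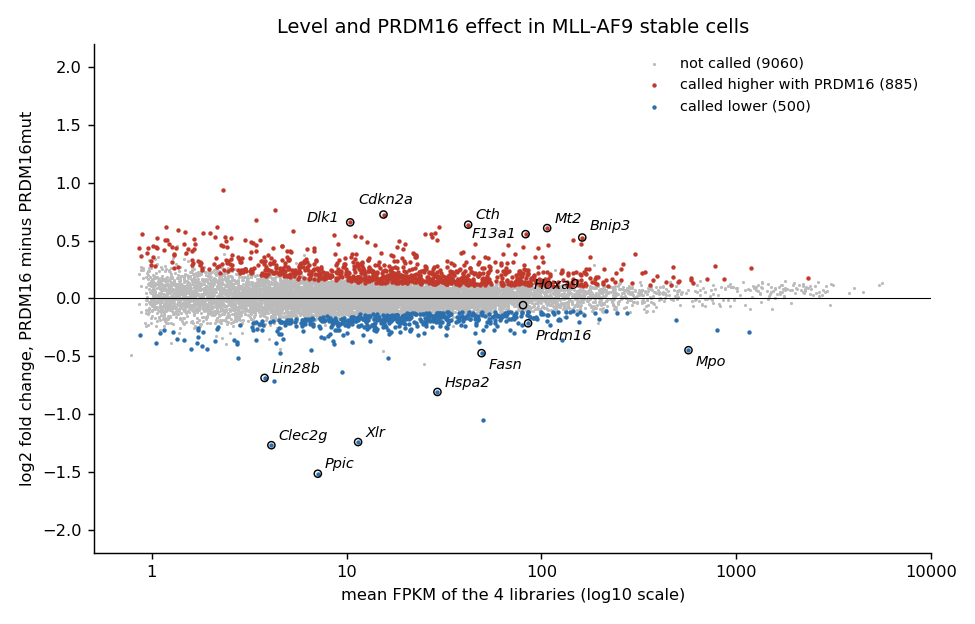
Mean FPKM over the 4 libraries (horizontal, log scale) against the log2 fold change between PRDM16 and PRDM16mut (vertical, from a fit of log2(FPKM + 1)) for the 10445 genes tested. Each point is a gene. The 885 genes called higher and the 500 called lower lie in a narrow band around 0 at most levels, and Ppic, Clec2g and Xlr stand furthest below it.

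The number of calls, and their balance, moved with the data used. After quantile normalization 732 genes were higher and 781 lower, and after scaling to a common median 998 were higher and 832 lower, so 63.9% of calls were higher in the deposited scaling, 48.4% after quantile normalization and 54.5% after median scaling. Leaving out PRDM16 replicate 1 or PRDM16 replicate 2 left 441 and 443 calls, and leaving out PRDM16mut replicate 1 or 2 gave 1184 and 1652. Without a filter on low values 68 genes were called, with small RNAs kept 673, and with the spread pooled over the 12 libraries 325. A stricter group of 267 genes (2.56%) was called in the full fit and also in each of the 4 fits that left out 1 library, 201 higher (1.92%) and 66 lower (0.632%). Below, held means called in all of these 4 fits as well.

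Of the genes that MLL-AF9 is known to keep active, none of the Hoxa cluster was called and few others were. Hoxa9, the homeobox gene most closely tied to MLL fusion leukaemia, was at 78.7 and 78.8 FPKM with PRDM16 against 81.1 and 83.001 with PRDM16mut. The groups did not overlap, yet the log2 fold change was -0.06 ± 0.031 (SE), with a 95% confidence interval from -0.13 to 0.01 and an adjusted p of 0.230. Hoxa10 stood at 75.2 and 76.5 against 78.2 and 79.8 FPKM, with a log2 fold change of -0.06 (adjusted p = 0.248). None of the 10 Hoxa genes tested was called, and their median log2 fold change was -0.06. After quantile normalization 2 of the 10 were called lower, Hoxa9 (adjusted p = 0.0449) and Hoxa10 (adjusted p = 0.0463), and Hoxa6 was called lower after median scaling (adjusted p = 0.0454) and without PRDM16 replicate 1 (adjusted p = 0.0241). Hoxa13 did not reach 1 FPKM.

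Meis1, the cofactor of Hoxa9, was at 14.8 and 14.1 FPKM with PRDM16 against 15.9 and 15.7 with PRDM16mut. Its groups did not overlap, but its log2 fold change of -0.12 ± 0.039 (SE) missed the threshold (adjusted p = 0.0746) and reached it after median scaling (adjusted p = 0.0482). Of the 14 MLL fusion targets tested outside the Hoxa cluster, 1 was called higher and 1 lower, and their median log2 fold change was -0.03. Mef2c, a transcription factor, was at 5.19 and 5.14 against 4.40 and 4.36 FPKM, and Jmjd1c, a member of the histone demethylase family, at 20.2 and 19.5 against 21.5 and 22.1. Neither call was kept in any of the 4 fits that left out a library, in which the adjusted p ran from 0.0671 to 0.147 for Mef2c and from 0.0603 to 0.258 for Jmjd1c. Gfi1, a zinc finger repressor of myeloid cells, was at 60.5 and 59.7 against 62.5 and 62.4 FPKM, a log2 fold change of -0.05 ± 0.030 (SE) with a 95% confidence interval from -0.12 to 0.02 (adjusted p = 0.261). Its relative Gfi1b lay under the filter, at 0.447 and 0.344 FPKM with PRDM16 against 0.404 and 0.318 with PRDM16mut. None of the 10 tested Gfi1 and LSD1-CoREST genes, which encode these repressors and the demethylase complex they recruit, was called, and their median was 0.07.

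The largest differences were genes that were lower with PRDM16. Ppic, which encodes cyclophilin C, a protein-folding isomerase, was at 3.46 and 2.95 FPKM with PRDM16 against 9.97 and 12.1 with PRDM16mut, a log2 fold change of -1.52 ± 0.087 (SE) (adjusted p = 6.59e-05). Clec2g, a C-type lectin-like membrane protein, was at 2.02 and 1.98 against 6.62 and 5.86 FPKM, a log2 fold change of -1.27 ± 0.065 (SE) (adjusted p = 4.91e-05). Both PRDM16 libraries lay far below both PRDM16mut libraries for these genes. Xlr, an X-linked gene first described in lymphocytes, was at 6.42 and 6.40 against 16.7 and 16.4 FPKM, a log2 fold change of -1.24 ± 0.040 (SE) (adjusted p = 3.02e-06). It belongs to a family of near-identical copies, among which the authors' counting could have split reads, so its value is uncertain. Hspa2, an Hsp70 chaperone best known from the testis, was at 21.6 and 20.4 against 37.4 and 37.7 FPKM, a log2 fold change of -0.81 ± 0.038 (SE). All of these calls held with each library left out.

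Lin28b, an RNA-binding protein of fetal blood cells that blocks let-7 maturation, was lower as well, at 2.74 and 2.61 FPKM against 4.98 and 4.87, with a log2 fold change of -0.69 ± 0.055 (SE) (adjusted p = 0.000277). Slc22a3, a transporter of organic cations, was at 7.21 and 7.19 against 11.7 and 11.8 FPKM, and Krtcap3 at 3.25 and 2.71 against 6.03 and 5.07. Their log2 fold changes were -0.64 ± 0.041 (SE) and -0.72 ± 0.086 (SE), and both held. Clec11a, a secreted growth factor for blood progenitors, was at 13.9 and 12.5 against 18.7 and 19.8 FPKM, and Mogat2, an enzyme of triglyceride synthesis, at 3.89 and 3.46 against 5.25 and 5.68, with log2 fold changes of -0.52 ± 0.052 (SE) and -0.47 ± 0.064 (SE), which held. Cox6b2, a testis form of a respiratory chain subunit, was at 2.62 and 1.67 against 3.46 and 3.41 FPKM, a log2 fold change of -0.51 ± 0.12 (SE). Its 2 PRDM16 libraries were far apart, and its call was lost without PRDM16 replicate 2 (adjusted p = 0.0623) or PRDM16mut replicate 1 (adjusted p = 0.0517). Fasn and Mpo complete the 12 named by size and are described with their groups.

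Cdkn2a was the cell cycle gene with the largest increase. It encodes the inhibitors p16Ink4a and p19Arf, which share the symbol and are not told apart here. It was at 20.4 and 18.6 FPKM with PRDM16 against 11.4 and 11.4 with PRDM16mut, a ratio of means of 1.71 and a log2 fold change of 0.73 ± 0.047 (SE) (adjusted p = 9e-05). Both PRDM16 libraries were clearly above both PRDM16mut libraries. Dlk1, an imprinted membrane protein related to Notch ligands, was at 13.1 and 12.9 against 7.29 and 8.51 FPKM, a log2 fold change of 0.66 ± 0.062 (SE) (adjusted p = 0.000646). Cth, the enzyme that makes cysteine from cystathionine, was at 51.7 and 51.1 against 33.3 and 32.1 FPKM, a log2 fold change of 0.64 ± 0.034 (SE) (adjusted p = 5.24e-05). All 3 calls held.

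Other genes with large increases had low levels. Glod5 was at 5.04 and 6.29 FPKM against 3.47 and 2.42, and its log2 fold change of 0.76 ± 0.12 (SE) was the largest increase among named genes. Tmsb15l, a beta-thymosin, which are actin-binding peptides, was at 4.25 and 4.65 against 2.34 and 2.45 FPKM, a log2 fold change of 0.68 ± 0.061 (SE). Itm2a, a membrane protein, was at 1.66 and 1.63 against 0.850 and 0.611 FPKM, and Rhoc, a small GTPase of the cytoskeleton, at 2.07 and 1.62 against 0.903 and 0.868. Of these 4 genes, Itm2a and Rhoc passed the filter of 1 FPKM only through the PRDM16 libraries, the group in which they were higher. These 4 calls held, as did those of the peptide hormone gene Adm2, with a log2 fold change of 0.58 ± 0.070 (SE), and of the protease inhibitor Spink2, with 0.57 ± 0.10 (SE). Hist1h4f, a histone H4 gene with near-identical copies, was at 2.56 and 2.19 against 1.69 and 0.930 FPKM, and its call was lost without PRDM16 replicate 1 (adjusted p = 0.113).

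**Figure D2:**
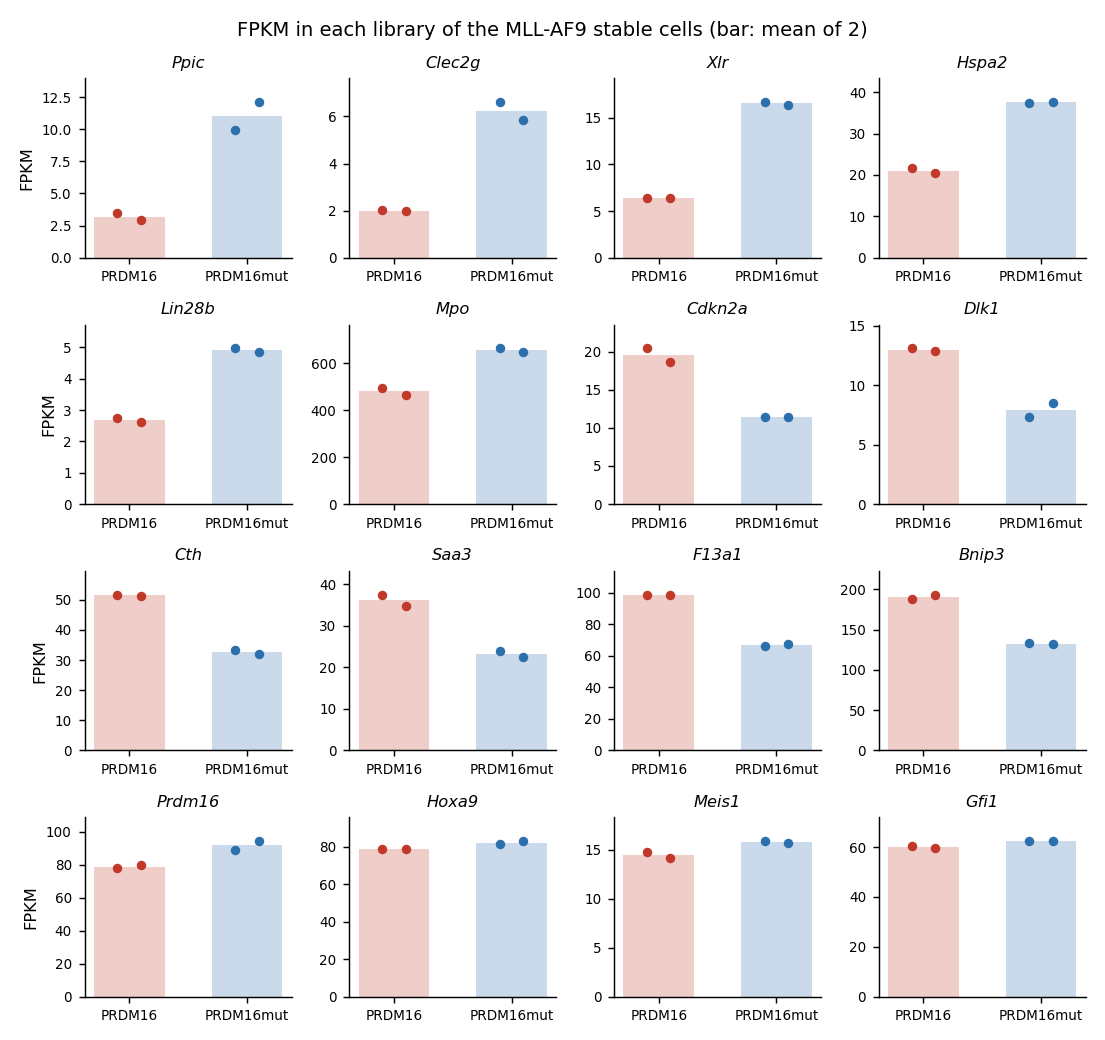
FPKM (vertical, from 0) of 16 named genes in each library of the MLL-AF9 stable cells. Points are the 2 libraries of a group and bars their mean. Ppic, Clec2g, Xlr, Hspa2, Lin28b and Mpo were lower with PRDM16, Cdkn2a, Dlk1, Cth, Saa3, F13a1 and Bnip3 higher, and Hoxa9, Meis1 and Gfi1 differed by 0.12 or less on the log2 scale.

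Among genes of glycolysis and the hypoxia response, 11 of 22 were called higher with PRDM16. These genes carry out the breakdown of glucose or respond to the transcription factor HIF1, which is stabilised when oxygen is low and binds the core sequence ACGTG. The other members were 1 called lower and 10 not called. Over all genes 8.47% were called higher and 4.79% lower. The counts of every list below are to be read beside these shares, and several lists lie near them. The median log2 fold change was 0.13 in the list against 0.01 over all genes. Of the 11, 4 held: Bnip3, Egln3, Ero1l and Vegfa. Without PRDM16 replicate 1 the count of higher members was 4, without PRDM16 replicate 2 it was 6, and without PRDM16mut replicate 1 and 2 it was 12 and 14.

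For the 4 members of this group with the smallest p, the 250 bases before the RefSeq gene start are shown because they hold that core. The sequences are from RefSeq on GRCm38.p6, read along each gene's strand, and capitals mark ACGTG on either strand, where CACGT is its reverse complement.
Bnip3, chr7:138909507-138909756, minus strand: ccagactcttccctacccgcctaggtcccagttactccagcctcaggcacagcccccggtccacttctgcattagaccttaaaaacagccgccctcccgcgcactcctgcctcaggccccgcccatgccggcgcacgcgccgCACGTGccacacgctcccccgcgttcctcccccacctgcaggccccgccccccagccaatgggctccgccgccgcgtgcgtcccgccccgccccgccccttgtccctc
Egln3, chr12:54203875-54204124, minus strand: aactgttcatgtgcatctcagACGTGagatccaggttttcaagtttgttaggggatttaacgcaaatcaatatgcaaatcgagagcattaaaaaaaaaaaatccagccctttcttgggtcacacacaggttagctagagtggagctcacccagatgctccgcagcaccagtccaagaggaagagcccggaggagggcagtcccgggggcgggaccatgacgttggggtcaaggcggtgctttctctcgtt
Ero1l (RefSeq Ero1a), chr14:45318573-45318822, minus strand: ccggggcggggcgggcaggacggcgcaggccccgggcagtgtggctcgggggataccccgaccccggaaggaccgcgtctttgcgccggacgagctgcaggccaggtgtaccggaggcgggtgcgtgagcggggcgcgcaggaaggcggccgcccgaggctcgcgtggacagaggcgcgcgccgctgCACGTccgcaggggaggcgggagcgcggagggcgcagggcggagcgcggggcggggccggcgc
Pgk1, chrX:106186850-106187099, plus strand: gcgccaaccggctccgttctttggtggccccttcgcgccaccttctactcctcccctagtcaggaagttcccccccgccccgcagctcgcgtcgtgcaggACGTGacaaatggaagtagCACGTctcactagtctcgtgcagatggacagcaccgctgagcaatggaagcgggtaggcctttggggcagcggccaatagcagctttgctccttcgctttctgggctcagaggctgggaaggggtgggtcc
In Bnip3 the capitals are the palindrome CACGTG, read as a match on each strand, which is also the E-box that Myc binds. Over all 32851 RefSeq mouse promoter windows of this length, 16.6% held ACGTG on 1 strand or the other and 6.02% held CACGTG. Of the 11 members called higher, 10 had a promoter entry and 7 of these held ACGTG. Of the 10 members not called, all had an entry and 5 held it, and so did Hk2, the member called lower. A member was counted if any of its promoter entries held the match, and some members had 2 or 3 entries. The 16.6% is a share of single windows, so these counts cannot be set directly against it. A match is a description of these letters and not a site shown to be bound.

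Bnip3, a mitochondrial protein of hypoxia-induced mitophagy, was at 189 and 194 FPKM with PRDM16 against 133 and 132 with PRDM16mut, a log2 fold change of 0.53 ± 0.031 (SE) (adjusted p = 6.59e-05). Egln3, an oxygen-dependent hydroxylase that marks HIF proteins for destruction and is itself induced by them, was at 50.2 and 50.7 against 38.3 and 39.98 FPKM, a log2 fold change of 0.36 ± 0.035 (SE) (adjusted p = 0.000708). Ero1l, an oxidase of the endoplasmic reticulum, was at 291 and 289.6 against 233 and 239 FPKM, a log2 fold change of 0.30 ± 0.031 (SE) (adjusted p = 0.00114). In these 3 genes the replicates lay close together and the groups were well apart. Vegfa, the vascular growth factor, was at 36.9 and 37.2 against 31.8 and 31.7 FPKM, a log2 fold change of 0.22 ± 0.032 (SE) (adjusted p = 0.00493).

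Pgk1, phosphoglycerate kinase, was at 1293 and 1286 FPKM against 1061 and 1084, a log2 fold change of 0.27 ± 0.036 (SE) (adjusted p = 0.00323), and its call was lost without PRDM16 replicate 1 (adjusted p = 0.0741) or PRDM16 replicate 2 (adjusted p = 0.0674). Ldha, lactate dehydrogenase, at 1519.6 and 1494 against 1364 and 1400.6 FPKM, and Eno1, enolase, at 527 and 476 against 496 and 497, were not called, with log2 fold changes of 0.12 and 0.01. The other genes called higher were the glucose transporters Slc2a1 and Slc2a3, the enzymes Pfkp and Tpi1, Hif1a, and the kinase Pdk1. Their log2 fold changes ran from 0.14 to 0.22. Hk2, a hexokinase, was called lower, at 29.03 and 26.8 against 31.9 and 31.6 FPKM, and lost its call without PRDM16 replicate 2 (adjusted p = 0.179) or without PRDM16mut replicate 1 (adjusted p = 0.0545).

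For genes of ribosome production the calls lay mostly in the other direction. The list of Myc network and ribosome biogenesis genes had 23 members tested, of which 11 were called lower and 1 higher, and its median was -0.11. Without PRDM16 replicate 1 or PRDM16 replicate 2, 7 members were lower each, and without PRDM16mut replicate 1 and 2 there were 11 and 10. The 7 that held were Nop2, Nolc1, Rrp12, Bop1, Polr1a, Polr1b and Ddx21, which modify or process ribosomal RNA, support the nucleolus or form RNA polymerase I. Bop1, an assembly factor of the large ribosomal subunit, was at 52.5 and 51.3 FPKM with PRDM16 against 62.6 and 63.1 with PRDM16mut, a log2 fold change of -0.27 ± 0.031 (SE) (adjusted p = 0.00188). Nop2, a ribosomal RNA methyltransferase, was at 41.8 and 39.8 against 49.6 and 51.2 FPKM, a log2 fold change of -0.30 ± 0.036 (SE). Both PRDM16 libraries lay below both PRDM16mut libraries in each, though 60.8% of all genes also had no overlap between the groups.

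Polr1a, the largest subunit of RNA polymerase I, was at 12.8 and 12.5 FPKM against 15.6 and 15.6, a log2 fold change of -0.28 ± 0.038 (SE). Nolc1, a nucleolar chaperone, was at 66.8 and 62.2 against 78.3 and 80.8 FPKM, and Ddx21, a nucleolar RNA helicase, at 74.9 and 71.7 against 85.6 and 86.7, with log2 fold changes of -0.30 ± 0.040 (SE) and -0.23 ± 0.034 (SE). The member called higher was Mxd1, which opposes Myc, at 12.4 and 12.9 against 10.3 and 10.6 FPKM, a call lost without PRDM16 replicate 2 (adjusted p = 0.0519). Myc itself was not called, at 96.5 and 98.1 FPKM with PRDM16 against 91.04 and 92.3 with PRDM16mut, a log2 fold change of 0.09 with an adjusted p of 0.0962. The cytosolic ribosomal proteins did not follow: none of 30 was called in the full fit, all 30 had a positive log2 fold change, and their median was 0.07, which was 0.00 after quantile normalization. Without PRDM16mut replicate 2, 26 of the 30 were called higher.

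Of 21 genes of cholesterol and fatty acid synthesis tested, 8 were called lower with PRDM16, 13 were not called and none was higher, with a median of -0.08. Without PRDM16 replicate 1 and 2 the count was 3 and 2, and without PRDM16mut replicate 1 or 2 it was 8. Fasn, the fatty acid synthase, was at 41.3 and 40.9 FPKM with PRDM16 against 55.8 and 59.1 with PRDM16mut, a log2 fold change of -0.47 ± 0.037 (SE) (adjusted p = 0.000230). Its call held with each library left out.

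Other members showed smaller differences. Lss, lanosterol synthase, was at 23.9 and 23.4 FPKM against 27.7 and 27.4, and its adjusted p rose to 0.0555 without PRDM16 replicate 2. Dhcr7, the reductase of the last step to cholesterol, Cyp51, Acaca, which makes the building block for fatty acids, and the desaturase Scd2 had log2 fold changes from -0.21 to -0.13. None of these 4 was called without PRDM16 replicate 1 or without PRDM16 replicate 2, with adjusted p from 0.0523 to 0.224 in those fits.

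**Figure D3:**
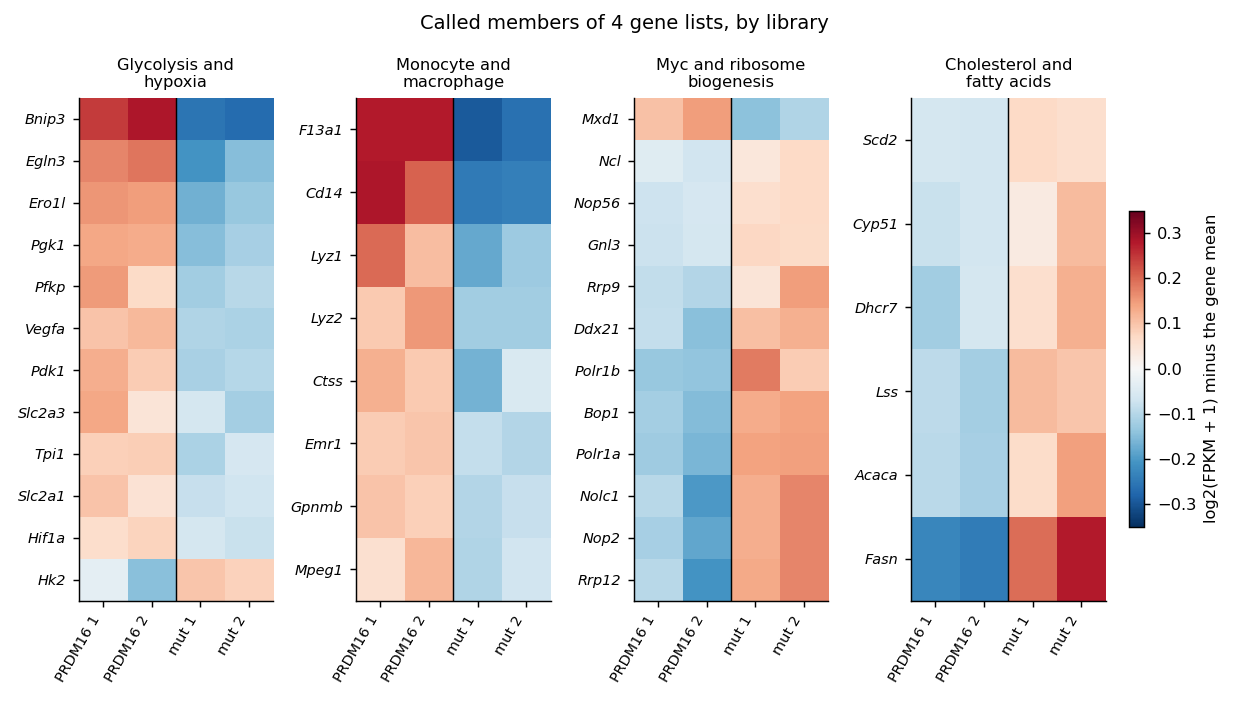
Deviation of log2(FPKM + 1) from the gene's mean over the 4 libraries (colour, red above and blue below the mean) for called members of 4 gene lists (6 of the 8 in the last), with libraries as columns and genes as rows. The members were picked by their calls in these same 4 libraries, so a separation of the groups is built into the choice. In every row both PRDM16 libraries lie on 1 side and both PRDM16mut libraries on the other. Over all genes 60.8% had no overlap between the groups. Log2 fold changes ran from -0.47 for Fasn to 0.56 for F13a1.

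Of 19 monocyte and macrophage genes tested, 8 were called higher with PRDM16, 11 were not called and none was lower. All 19 had a positive log2 fold change, and the median was 0.18. Of the 8, 3 held: F13a1, Cd14 and Lyz2. The counts were 3 and 4 without PRDM16 replicate 1 and 2, and 5 and 9 without PRDM16mut replicate 1 and 2. F13a1, a coagulation factor subunit made by monocytes, was at 98.9 and 98.8 FPKM with PRDM16 against 66.2 and 67.7 with PRDM16mut, a log2 fold change of 0.56 ± 0.031 (SE) (adjusted p = 5.9e-05). Cd14, a receptor for bacterial lipopolysaccharide, was at 15.4 and 14.6 against 10.4 and 10.4 FPKM, a log2 fold change of 0.49 ± 0.042 (SE) (adjusted p = 0.000377). Lyz2, a lysozyme of monocytes and neutrophils, was at 135 and 141 against 116 and 116 FPKM, a log2 fold change of 0.24 ± 0.033 (SE). Lyz1, its near-identical copy, was at 6.78 and 6.30 against 4.99 and 5.21, and reads of the 2 lysozymes may have been split between them. The Lyz1 call was lost without PRDM16 replicate 1 (adjusted p = 0.0589). The receptor Csf1r, which defines monocytes, was low, at 2.51 and 2.39 against 2.50 and 2.05 FPKM, and was not called (adjusted p = 0.525).

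Of 23 receptors and oxidase subunits of phagocytes tested, 9 were called higher, 14 were not called and none was lower, with a median of 0.11, and 5 held: Cybb, Tlr4, Cd14, Fcgr3 and Fcgr2b. Without PRDM16 replicate 1 the count was 5, without PRDM16 replicate 2 it was 6, and without either PRDM16mut library it was 8. Cybb, the catalytic subunit of the phagocyte oxidase, was at 19.003 and 19.5 FPKM against 14.3 and 14.9, a log2 fold change of 0.38 ± 0.039 (SE) (adjusted p = 0.00111). Tlr4, which signals with Cd14 in response to lipopolysaccharide, was at 25.6 and 25.5 against 19.2 and 20.2 FPKM, a log2 fold change of 0.36 ± 0.038 (SE) (adjusted p = 0.00126). The antibody receptors Fcgr3 and Fcgr2b were at 90.8 and 88.6 against 71.5 and 74.9 FPKM and at 70.8 and 68.9 against 60.6 and 59.3. Tlr2, a relative of Tlr4, had a log2 fold change of 0.19 and did not hold, with an adjusted p of 0.0930 without PRDM16 replicate 1 and 0.0787 without PRDM16 replicate 2.

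Inflammatory cytokines and chemokines gave 7 members higher and 1 lower of 16 tested, with a median of 0.23. The count of higher members ran from 5 to 7 with 1 library left out, and 4 held. Saa3, an acute-phase protein, was at 37.5 and 34.7 FPKM with PRDM16 against 23.97 and 22.5 with PRDM16mut, a log2 fold change of 0.62 ± 0.047 (SE) (adjusted p = 0.000210). Ccl6 and Ccl9, chemokines of mouse myeloid cells, were at 34.8 and 33.5 against 23.1 and 22.4 FPKM and at 105 and 104 against 81.4 and 81.7, with log2 fold changes of 0.56 ± 0.037 (SE) and 0.36 ± 0.030 (SE). Ccl3, another chemokine, was at 47.5 and 47.1 against 40.5 and 39.8 FPKM, a log2 fold change of 0.23 ± 0.032 (SE). Across all genes, the groups had no overlap in 60.8%. In all 4 genes that held, each PRDM16 library lay above both PRDM16mut libraries, which their choice by these calls made nearly certain. Csf1, the growth factor of macrophages, was at 4.82 and 4.57 against 3.22 and 3.71 FPKM, and its call was lost without PRDM16 replicate 1 (adjusted p = 0.0611). The member called lower was the cytokine Osm, at 16.8 and 16.8 against 18.7 and 18.5 FPKM, with an adjusted p of 0.157 without PRDM16 replicate 1, 0.146 without PRDM16 replicate 2 and 0.0828 without PRDM16mut replicate 1.

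Granule genes of neutrophils did not move as 1 group. Mpo, the myeloperoxidase of azurophil granules, was lower, at 495 and 465 FPKM with PRDM16 against 663 and 646 with PRDM16mut, a log2 fold change of -0.45 ± 0.040 (SE) (adjusted p = 0.000418), and it held. Of 12 azurophil granule genes 2 were called lower and 1 higher, beside 4.79% and 8.47% of all genes, with a median of -0.02. Calr, the chaperone calreticulin, was lower at 730.1 and 706 against 864 and 866 FPKM, with an adjusted p of 0.0697 without PRDM16 replicate 2. Ctsc, the protease that activates granule proteases, was higher at 40.3 and 39.7 against 34.2 and 33.9 FPKM, and it held. Elane, Prtn3 and Ctsg, the most abundant proteases of these granules, were not called, with log2 fold changes of -0.06, -0.04 and 0.06. After quantile normalization 5 azurophil genes were called lower, Elane (adjusted p = 0.0171) and Prtn3 (adjusted p = 0.0108) among them.

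Of 22 secondary and late granule genes, 7 were called higher and 3 lower, with a median of 0.05. The count of higher members was 1 and 3 without PRDM16 replicate 1 and 2, and 6 and 9 without PRDM16mut replicate 1 and 2. Camp, the cathelicidin peptide, was lower, at 112 and 109.7 FPKM against 143 and 144, a log2 fold change of -0.36 ± 0.031 (SE) (adjusted p = 0.000358). Chi3l3, a chitinase-like protein with close copies, was lower as well, at 43.98 and 46.7 against 53.2 and 56.8 FPKM, a log2 fold change of -0.27 ± 0.043 (SE). Lcn2, a granule protein that binds bacterial iron carriers, was higher, at 92.4 and 91.9 against 78.2 and 80.2 FPKM, a log2 fold change of 0.22 ± 0.031 (SE). These 3 held, so members of the same granules were called in both directions. Stfa2, a stefin with near-identical copies whose reads may be split, was higher at 233 and 223 against 185 and 198 FPKM and lost its call without PRDM16 replicate 1 (adjusted p = 0.0629).

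**Figure D4:**
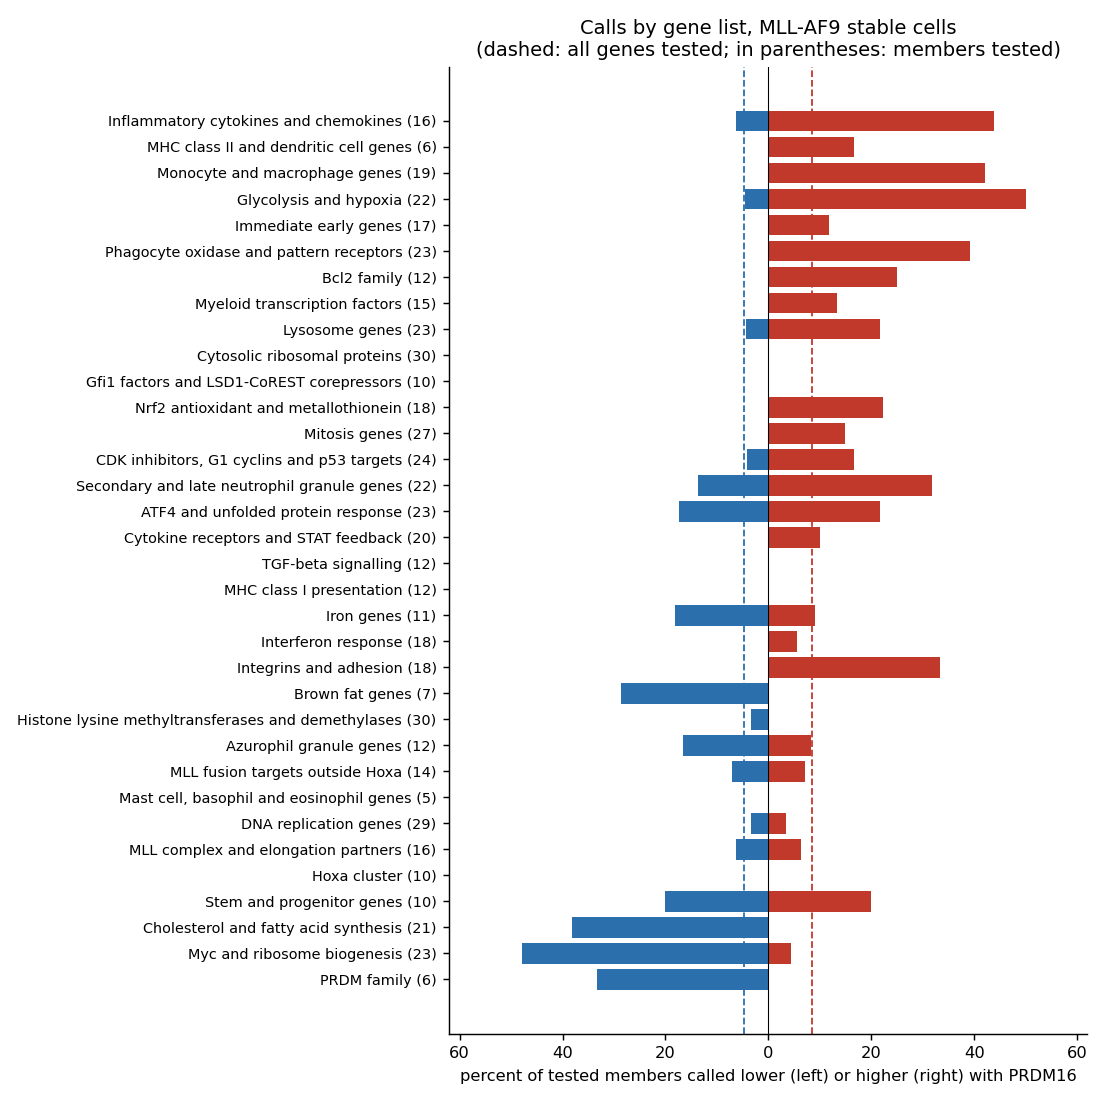
Percent of the tested members of each gene list that were called higher (right, red) or lower (left, blue) with PRDM16, for the lists with 5 or more members tested. Dashed lines mark the same share over all 10445 genes, 8.47% higher and 4.79% lower, and lists are ordered by their median log2 fold change. The bars reach furthest for glycolysis and hypoxia genes on the right (11 of 22) and for Myc and ribosome biogenesis genes on the left (11 of 23).

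Among inhibitors of the cell cycle, Cdkn1a was higher beside Cdkn2a. Cdkn1a encodes p21, a target of p53, and was at 61.2 and 57.7 FPKM with PRDM16 against 46.8 and 46.3 with PRDM16mut, a log2 fold change of 0.35 ± 0.037 (SE) (adjusted p = 0.00124). Cdkn1c, which encodes p57, was lower, at 2.16 and 2.33 against 3.14 and 3.39 FPKM, a log2 fold change of -0.40 ± 0.064 (SE) (adjusted p = 0.00700). These 3 held. Of 24 tested genes for CDK inhibitors, G1 cyclins and p53 targets, 4 were called higher and 1 lower, with a median of 0.05. The other 2 called higher were Pmaip1, a death-promoting p53 target at 42.4 and 40.2 against 36.9 and 36.05 FPKM, and Cdkn2c, at 87.1 and 84.4 against 78.1 and 79.2, which had adjusted p of 0.146 and 0.268 without PRDM16 replicate 1.

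Proliferation genes differed little. For all genes tested, 8.47% were called higher and 4.79% lower. Of 27 mitosis genes 4 were called higher and none lower, with a median of 0.06, and none held. The 4 were Nusap1, Ndc80, Cenpa and Nuf2, with log2 fold changes from 0.13 to 0.23, and none was called without PRDM16 replicate 1 (adjusted p from 0.0968 to 0.211). Mki67, the marker of dividing cells, was at 61.3 and 59.2 FPKM against 59.4 and 63.3 with overlapping groups, a log2 fold change of -0.02 and a 95% confidence interval from -0.11 to 0.06. Of 29 DNA replication genes 1 was called higher, Rfc4, and 1 lower, Pole, with adjusted p of 0.0621 and 0.129 without PRDM16 replicate 1. Of 12 tested genes of the Bcl2 family 3 were called higher: Pmaip1 and the survival genes Bcl2a1a and Bcl2a1b. Bcl2a1a was at 10.3 and 10.5 against 5.97 and 7.79 FPKM and Bcl2a1b at 2.66 and 3.31 against 1.82 and 1.80, and since these copies are near-identical their separate values are uncertain.

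Some antioxidant and metal-binding genes were higher with PRDM16. Mt2, a metallothionein that binds zinc and copper, was at 134 and 124 FPKM with PRDM16 against 80.4 and 88.7 with PRDM16mut, a log2 fold change of 0.61 ± 0.052 (SE) (adjusted p = 0.000372). Hmox1, the enzyme that degrades haem, was at 31.97 and 32.3 against 25.9 and 26.6 FPKM, a log2 fold change of 0.28 ± 0.034 (SE), and Slc7a11, the cystine importer, at 5.89 and 5.66 against 4.48 and 4.21, with 0.34 ± 0.053 (SE). Of 18 tested Nrf2 antioxidant and metallothionein genes 4 were called higher and none lower, with a median of 0.06, and these 3 held. Mt1, the fourth, was at 866 and 826 against 676 and 719.7 FPKM and lost its call without PRDM16 replicate 1 (adjusted p = 0.0789).

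Genes of amino acid shortage and of the unfolded protein response split. Of 23 tested, 5 were called higher and 4 lower, with a median of 0.04. Trib3, a pseudokinase induced by ATF4, was at 25.4 and 25.02 FPKM against 18.9 and 19.9, a log2 fold change of 0.36 ± 0.038 (SE), and Asns, asparagine synthetase, at 185 and 183 against 153 and 155, with 0.26 ± 0.030 (SE). Cebpg, a transcription factor that pairs with ATF4, was higher too, at 9.83 and 9.83 against 7.80 and 7.92 FPKM, a log2 fold change of 0.29 ± 0.042 (SE). Chac1, another ATF4 target that degrades glutathione, was lower, at 10.5 and 10.8 against 13.8 and 13.3 FPKM, a log2 fold change of -0.32 ± 0.041 (SE). These 4 held, so known ATF4 targets were called in both directions. The chaperones Hspa5, Sdf2l1 and Pdia4 of the endoplasmic reticulum were the other 3 called lower, with log2 fold changes from -0.18 to -0.12, and their adjusted p ran from 0.117 to 0.267 without PRDM16 replicate 1 or PRDM16 replicate 2.

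Lysosome genes gave 5 higher (21.7%) and 1 lower (4.35%) of 23 tested, beside 8.47% and 4.79% of all genes, with a median of 0.09. Ctsl, a lysosomal protease, was at 59.2 and 56.4 FPKM against 44.6 and 45.1, a log2 fold change of 0.36 ± 0.035 (SE) (adjusted p = 0.000759), and it was the 1 member that held. The list had 2 higher members without either PRDM16 library and 9 without PRDM16mut replicate 2. Adhesion genes gave 6 higher and none lower of 18 tested, with a median of 0.01, of which Cd9, a tetraspanin, held at 14.8 and 14.1 against 10.98 and 11.6 FPKM. That list had 1 higher member without PRDM16 replicate 1 and 2 without PRDM16 replicate 2 or PRDM16mut replicate 1. Klf2 and Klf6, zinc finger factors of the immediate early response, were the 2 of 17 immediate early genes called, both higher, at 24.3 and 25.6 against 17.9 and 19.7 FPKM and at 16.5 and 15.95 against 13.4 and 13.4, and both held.

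Genes of stem and progenitor cells were called in both directions, 2 higher and 2 lower of 10 tested, with a median of -0.07. Ly6a, which encodes the surface protein Sca-1, was higher, at 32.7 and 32.6 FPKM with PRDM16 against 21.9 and 21.8 with PRDM16mut, a log2 fold change of 0.56 ± 0.033 (SE) (adjusted p = 6.59e-05). Erg, a transcription factor of stem cells, was lower, at 6.61 and 6.29 against 8.08 and 8.73 FPKM, a log2 fold change of -0.34 ± 0.052 (SE) (adjusted p = 0.00558). Both held, and replicates of Ly6a were nearly equal. Cd34, a surface marker of progenitors, was lower at 3.07 and 2.72 against 3.62 and 4.40 FPKM, but lost its call without PRDM16 replicate 2 (adjusted p = 0.112) or PRDM16mut replicate 2 (adjusted p = 0.0683). Cd93 was higher at 42.3 and 41.9 against 36.9 and 37.1 FPKM and lost its call without PRDM16 replicate 1 (adjusted p = 0.0691) or 2 (adjusted p = 0.0575). Markers of other lineages that were called were the platelet chemokine Pf4, at 3.12 and 2.84 against 1.99 and 1.84 FPKM, and Thbs1, at 278 and 276 against 231 and 233, both higher and both held. The summed megakaryocyte and platelet list was at 39.1 to 39.5 FPKM with PRDM16 against 37.97 to 38.96 with PRDM16mut.

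Regulators of myeloid cells and their signals were mostly not called, as were most genes tested, of which 8.47% were higher and 4.79% lower. Of 15 myeloid transcription factors tested 2 were higher and none lower, with a median of 0.09. They were Cebpg, given above, and Cebpd, a stress-induced relative, at 27.5 and 27.97 FPKM against 21.1 and 25.2, whose adjusted p was 0.0983 without PRDM16 replicate 1 and 0.127 without PRDM16 replicate 2. Cebpa, which directs granulocyte formation, was at 31.4 and 30.95 against 25.5 and 29.8 FPKM and was not called (adjusted p = 0.0977). Without PRDM16mut replicate 2, 6 factors of this list were called higher, Cebpa (adjusted p = 0.00234) and Cebpb (adjusted p = 0.000850) among them. Of 20 cytokine receptor and STAT feedback genes 2 were higher and none lower, with a median of 0.04: Cish, a feedback inhibitor of STAT5, at 24.7 and 25.7 against 21.9 and 21.9 FPKM, and Stat5b, at 11.3 and 11.3 against 10.1 and 9.96. Without PRDM16 replicate 2 the adjusted p of these genes was 0.0941 and 0.155.

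Of 11 iron genes 1 was higher, Hmox1, and 2 lower, beside 8.47% and 4.79% of all genes, with a median of 0.02. The lower genes were Tfrc, the transferrin receptor, at 104 and 102 FPKM against 114 and 113, and the iron reductase Steap3, at 6.96 and 7.13 against 8.40 and 7.81, with adjusted p of 0.108 and 0.183 without PRDM16 replicate 1. Of 6 tested MHC class II and dendritic cell genes Cd86, a costimulatory ligand, was higher, at 1.98 and 1.83 against 1.39 and 1.22 FPKM, with an adjusted p of 0.118 without PRDM16 replicate 1, and the median was 0.20. None of 5 tested mast cell, basophil and eosinophil genes was called, with a median of -0.03.

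The groups that follow showed few calls or none. Of 16 MLL complex and elongation genes 1 was higher, Ash2l, a subunit shared by MLL complexes, and 1 lower, Dot1l, the methyltransferase that MLL fusions recruit. Dot1l was at 11.05 and 11.7 FPKM against 12.95 and 13.1, a log2 fold change of -0.18. Without PRDM16 replicate 1 the adjusted p was 0.0902 for Ash2l and 0.158 for Dot1l. Of 30 histone methyltransferases and demethylases 1 was called, Setd1a, lower, with an adjusted p of 0.121 without PRDM16 replicate 1. None of 12 genes of MHC class I presentation and none of 12 of TGF-beta signalling was called, with medians of 0.03 and 0.04. In these lists B2m, the light chain of MHC class I, was at 363 and 355 against 341 and 346 FPKM. Of 18 interferon response genes 1 was called, Ifi27l2a, at 3.78 and 3.47 against 3.09 and 2.79 FPKM, which was higher, close to the threshold (adjusted p = 0.0491), and not called without PRDM16 replicate 1 (adjusted p = 0.235), PRDM16 replicate 2 (adjusted p = 0.0848) or PRDM16mut replicate 2 (adjusted p = 0.139). Of 7 brown fat genes tested, the 2 called, both lower, were Prdm16 itself and its partner Ctbp2, at 28.3 and 28.99 against 30.7 and 32.2 FPKM, whose adjusted p was 0.237 without PRDM16 replicate 1. The PRDM family gave 2 lower of 6 tested, Prdm16 and Prdm15. Prdm16 counts in both lists, although transcripts of the introduced gene and of the cell's own gene cannot be told apart. Prdm15 was called in none of the 4 fits that left out a library (adjusted p from 0.0515 to 0.182), and Mecom, the closest relative of Prdm16, was listed at 0 in all 4 libraries.

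For many genes the effect of PRDM16 in the stable cells differed from its effect in cells that received the fusion and PRDM16 together. A test of the difference, fitted over both tables, called 6284 of 9633 genes (65.2%) against the MLL-AF9 cotransduction, 34.7% with a higher value in the stable cells and 30.5% with a lower one, and 4369 of 9945 (43.9%) against the E2A-HLF cotransduction, 20.2% higher and 23.8% lower. The tables were deposited separately, so levels were compared only within each. Over the genes tested in both, the median size of the log2 fold change was 0.07 in the stable cells, 0.34 in the MLL-AF9 cotransduction and 0.14 in the E2A-HLF cotransduction. Among genes tested in both tables, 949 of 1288 stable-cell calls (73.7%) were also called in the MLL-AF9 cotransduction, beside 71.3% of all genes there. The 71.3% also covers genes that were not tested in the stable cells. Over the 9648 genes tested in both, 6698 were called in the cotransduction, and the 949 made up 14.2% of these. Of these 949, 583 had the same direction in both. Against the E2A-HLF cotransduction the overlap was 761 of 1297 (58.7%), beside 47.7% of all genes called there. Over the 9959 genes tested in both, 4471 were called in that cotransduction, and the 761 made up 17.0% of these. Of the 761, 332 had the same direction.

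The Hoxa genes differed in this test. Hoxa9 was at 0.104 and 0.0957 FPKM with PRDM16 against 30.4 and 30.01 with PRDM16mut in the MLL-AF9 cotransduction, and at 5.76 and 5.69 against 18.8 and 17.8 in the E2A-HLF cotransduction. Its log2 fold change was -4.83 and -1.52 there, and -0.06 in the stable cells. The difference, stable cells minus cotransduction, was 4.77 ± 0.059 (SE) for MLL-AF9 (adjusted p = 1.47e-11) and 1.46 ± 0.056 (SE) for E2A-HLF (adjusted p = 4.22e-09). All 7 Hoxa genes that could be compared with the MLL-AF9 cotransduction, and all 6 with the E2A-HLF cotransduction, were called in the difference, each less reduced in the stable cells. Prdm16 was 1.71 higher on the log2 scale with PRDM16 than with PRDM16mut in the MLL-AF9 cotransduction, at 83.9 and 119 against 29.5 and 30.1 FPKM, whereas in the stable cells it was slightly lower. Prdm16 levels moved with the groups in both MLL-AF9 experiments, and their part in the results was not tested.

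Other groups of the stable cells also compared differently with the MLL-AF9 cotransduction. All 27 mitosis genes were called in the difference, and all were lower with PRDM16 in the cotransduction, where their median was -0.85. Of 22 secondary and late granule genes 20 were called in the difference with a higher value in the stable cells and 1 with a lower one. Among 22 glycolysis and hypoxia genes tested there, 7 were called higher and 9 lower, beside 36.5% and 34.8% of all genes. In the difference 10 of 21 were higher in the stable cells and 4 lower. In the E2A-HLF cotransduction 14 of 23 glycolysis and hypoxia genes were higher and 3 lower, with a median of 0.21. That is the direction of the stable cells, and all genes there gave 24.8% and 22.9%. In that difference 5 of 22 were higher in the stable cells and 9 lower. Among 24 ribosome biogenesis genes, 7 were higher and 8 lower in the MLL-AF9 cotransduction. In the difference 4 of 23 were higher in the stable cells and 10 lower. In the E2A-HLF cotransduction 10 of the 24 were higher and 1 lower, beside 24.8% and 22.9% of all genes, and in the difference 1 of 23 was higher in the stable cells and 12 lower. Cdkn1a was higher with PRDM16 in all 3 experiments, with log2 fold changes of 0.35 in the stable cells, 0.93 in the MLL-AF9 cotransduction and 0.59 in the E2A-HLF cotransduction. Mpo was lower in the stable cells and in the MLL-AF9 cotransduction (-0.45 and -1.58) and higher in the E2A-HLF cotransduction (3.62).

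**Figure D5:**
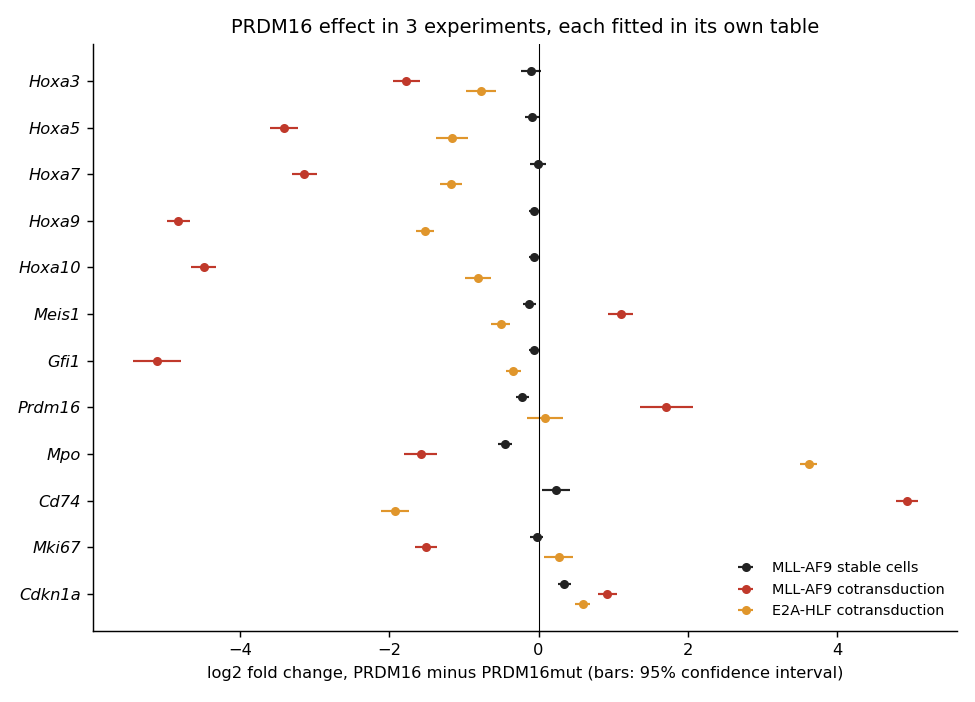
Log2 fold change of PRDM16 against PRDM16mut (horizontal, fitted within each table) for 12 genes in the MLL-AF9 stable cells (black), the MLL-AF9 cotransduction (red) and the E2A-HLF cotransduction (orange), with bars for the 95% confidence interval. In the stable cells the 5 Hoxa genes shown, Meis1 and Gfi1 lie between -0.12 and -0.01, whereas Hoxa9 was at -4.83 and -1.52 in the cotransductions. Meis1 was higher with PRDM16 in the MLL-AF9 cotransduction, at 11.4 and 10.6 against 4.79 and 4.40 FPKM. In the E2A-HLF cotransduction Meis1 was lower, at 8.82 and 8.97 against 13.2 and 12.9 FPKM.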

How the data were processed

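RNA from the 4 libraries of the MLL-AF9 stable cells and the 8 of the cotransductions was, per the labels, extracted with Trizol and made into TruSeq v2 libraries primed with oligo(dT). The authors deposited FPKM per gene symbol in 1 table per experiment. Per the submitters' processing notes Bowtie2 2.0.0.7, TopHat2 2.0.3, Cuffdiff and the mm9 build were used. Not given in the sources used here were the annotation, the scaling between libraries and the use of strand. Overlapping and antisense genes may therefore share reads, and genes are given by symbol without coordinates. Promoter sequences are from a RefSeq table on GRCm38.p6, which is not the build of the reads, and serve only as sequence.

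Genes with an FPKM of 1 or more in 2 or more libraries were fitted as log2(FPKM + 1) with limma 3.58.1 in R 4.3.3 (PRDM16 minus PRDM16mut, trend on the mean level, two-sided). Calls needed an adjusted p (Benjamini-Hochberg, over all genes of the table) under 0.05. Differences between experiments were contrasts over 8 libraries. An exact permutation test of 2 against 2 libraries cannot go below p = 0.333, so every adjusted p rests on the variance limma shares across genes. The fit was tested on simulated data. The 15 entries whose symbols a spreadsheet had turned into dates were tested but not named, and a few called or marker genes are not reported here.

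The cells, the 39 gene lists and the tests were chosen with earlier results of these data known, so a list's direction is not independent evidence. Named genes were 5 fixed genes, the 12 largest calls in each direction without ribosomal RNA, clone or predicted names, up to 5 members of smallest p per list with 2 or more calls, every called member of a list with 1, the most abundant members of lists with none, and the 6 largest differences in each direction by the same name filter. Further list members and lineage markers in the text were chosen after their values were seen. Alternatives were another pseudocount, filter, scaling or variance model, small RNAs kept, a replicate block, and each library left out. With 1 library left in a group, that library is assumed to vary like the other group.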

Additional observations from a re-analysis of the deposited data

Results flagged for a closer look

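Each result here is a difference between the PRDM16 effect in the stable cells and the effect in a cotransduction, tested as a contrast in limma over the 8 libraries of both experiments and given as stable cells minus cotransduction on the log2 scale. Differences were called for 6284 genes against the MLL-AF9 cotransduction and for 4369 against the E2A-HLF cotransduction, 65.2% and 43.9% of the genes tested.

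Against the MLL-AF9 cotransduction, the fixed genes differed by 4.77 ± 0.059 (SE) for Hoxa9, 5.06 ± 0.15 (SE) for Gfi1, -1.22 ± 0.080 (SE) for Meis1 and -1.93 ± 0.18 (SE) for Prdm16, with adjusted p of at most 1.01e-05. Passing over ribosomal RNA, clone and predicted names, the 6 genes with the largest positive differences were neutrophil granule and stefin genes: Chi3l3 at 9.57, Ngp at 8.33, Stfa2 at 7.85, Camp at 7.60, Elane at 7.46 and Stfa2l1 at 7.16. In the cotransduction they were lower with PRDM16 by 7.10 to 9.85 on the log2 scale, whereas in the stable cells their log2 fold changes ran from -0.36 to 0.25. The 6 with the largest negative differences were the antigen presentation genes Cd74 at -4.70 and H2-Ab1 at -3.96, the fungal receptor Clec7a at -3.95, the secreted protein Mfge8 at -3.69, the phosphodiesterase Smpdl3a at -3.19 and the enzyme Ass1 at -3.19. Of these 6, Smpdl3a was called in the stable cells themselves, with a log2 fold change of 0.26. The adjusted p of the 12 differences was at most 2.64e-07.

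Against the E2A-HLF cotransduction, the differences were 1.46 ± 0.056 (SE) for Hoxa9, 0.39 ± 0.061 (SE) for Meis1 and 0.28 ± 0.051 (SE) for Gfi1, with adjusted p of at most 0.000988. With the same names passed over, the largest positive differences were 3.77 for Ifi27l2a, 3.50 for Foxred2, 3.11 for Oas2, 2.98 for Casp1, 2.80 for Ifi27l1 and 2.78 for Isg15. Among them Oas2 and Isg15 are known interferon-induced genes, which in the stable cells had log2 fold changes of -0.09 and 0.03. Ifi27l2a, counted above with the interferon response genes, was called higher in the stable cells, close to the threshold, and did not hold. The largest negative differences were -6.27 for Xlr, -5.93 for Stfa1, -5.48 for Vcam1, -5.21 for Serpinb2, -5.19 for Ms4a3 and -4.62 for Stfa3. Xlr was lower with PRDM16 in the stable cells (-1.24) and higher in the E2A-HLF cotransduction (5.03). The adjusted p of these 12 was at most 1.87e-06. Xlr and the stefins have near-identical copies, so their values are uncertain.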

How the results depend on the processing

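None of the 114 named genes changed direction under any alternative run that tested it. At an FPKM of at least 5 only 98 of them were tested, and with the spread pooled over 12 libraries 100. Many were named for their calls in these same libraries, so a kept direction was close to fixed in advance. The calls in the stable cells depended on the variance estimate and on single libraries. The full fit called 1385 genes, 885 higher, 500 lower and 4 by 2-fold or more. Without a filter on low values the counts were 68 called, 55 higher and 13 lower, and 87 of 114 named genes lost their side of the threshold. With small RNAs kept they were 673, 444 and 229, with 34 by 2-fold or more. Without a trend they were 779, 519 and 260, and with the spread pooled over 12 libraries 325, 239 and 86, with 1 by 2-fold or more. A pseudocount of 0.1 gave 67 by 1.5-fold or more, against 19 in the full fit, and 7 by 2-fold or more. Quantile normalization gave 732 higher and 781 lower and median scaling 998 and 832. Leaving out 1 library gave 441 to 1652 called, 301 to 1253 higher and 105 to 520 lower, the fewest without a PRDM16 library. At an unadjusted p under 0.05, 3293 genes passed. The cause of these shifts was not tested.

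The labels give each group samples 1 and 2 without saying what the number shares. A replicate block called 1953 genes, changed the side of none of the 114 and called Hoxa4 and Hoxa6 lower where the unblocked fit called no Hoxa gene. Deviations of same-numbered libraries correlated at -0.23 in the stable cells over 10445 genes, and a block with the numbers crossed, chosen after seeing the data, called 1115. Of 439 checks of the named differences between experiments, 437 kept direction and side and 2 newly passed. Most of these differences were named for their size, so their direction was close to fixed in advance too. Of 468 checks of list medians, 363 moved by less than the replicate spread. Quantile normalization turned the medians of the adhesion, interferon and MHC class I lists from just above 0 to just below it. The depth of the libraries is unknown, so no limit for low values was set.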
